A study of Homo sapiens with 6 samples.

Results

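The genes described here are 52 genes of DNA replication, chosen by name from the 58735 rows of the deposited table: the origin recognition and licensing factors, the replicative helicase and its activators, the sliding clamp and its loader, the polymerases, the enzymes that finish DNA strands or supply nucleotides, and the cyclin E and E2F1 genes that start S phase. All 52 were found. Their messages were measured by RNA sequencing in cultures differentiated from the human induced pluripotent stem cell line Ff-I01s01, a reprogrammed line of WT genotype that can form every tissue, and labelled as pancreatic progenitor cells. From day 6 to day 8, in a step named S3, cultures were given 2 µM K-3 (n = 3 libraries) or not given it (Control, n = 3 libraries). K-3 is a code name about which the labels say nothing more, and the stated question was how it changes the cells' expression at the progenitor stage. All 6 libraries came from this single line, and the labels do not say whether the 3 libraries of a group were separate differentiations, so the tests here rest on library-to-library spread, part or all of which can be technical.

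DNA replication is prepared in G1, when the origin recognition complex, CDC6 and CDT1 load a ring of MCM proteins onto DNA. At the start of S phase CDC7 with DBF4, CDC45, MCM10 and the GINS complex turn this ring into a moving helicase, while geminin (GMNN) binds CDT1 and blocks reloading. The clamp PCNA, loaded by the RFC complex, tethers polymerases at the fork, RPA covers the exposed single strands, FEN1 and LIG1 join the lagging-strand pieces, and ribonucleotide reductase and thymidylate synthase supply the building blocks. Many of these genes are transcribed through E2F factors once cyclin-dependent kinases, with cyclin E among their activators, have inactivated the retinoblastoma protein, which is why their messages are often used as a sign of dividing cells.

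Values are FPKM, fragments scaled for gene length and a library size, as deposited. The library size that the values imply is not the sum of gene-assigned fragments. It was 38177025 for Control replicate 1, below its 38773637 fragments, and 38842144 for Control replicate 2, above its 37807532. How it was set is not stated. Control libraries summed to 35334645 to 38773637 gene-assigned fragments and K-3 libraries to 41839266 to 50199369, so every K-3 library was deeper. Markers of the labelled cell type were present: the mean of FOXA2 was 98.9 ± 3.4 FPKM for Control and 111 ± 3.4 for K-3 (SD, n = 3 libraries each), and that of PDX1 was 14.3 ± 3.2 and 22.2 ± 1.2 (adjusted p = 0.0634). Genes of other cell types were present too, and 3 of these lists stood apart between the groups in their summed level. The mesenchymal list (5 genes, led by VIM) summed to 52.1 to 87.1 FPKM in Control and 94.5 to 100.2 with K-3, the intestinal list (4 genes, VIL1 and CDX2 detected above 1 FPKM) to 33.6 to 38.8 and 39.4 to 41.5, and the hepatic list (5 genes, led by TTR and AFP) to 2561 to 2835 and 2404.5 to 2549. Within the intestinal list the mean of CDX2 was 7.68 FPKM in Control and 13.4 in K-3, and that of VIL1 was 29.1 and 26.8. Within the mesenchymal list the mean of VIM was 43.0 FPKM in Control and 71.6 in K-3, while COL1A1 and PDGFRA overlapped between the groups. COL3A1 and TWIST1, both below 1 FPKM, had lower means with K-3. In the hepatic list, TTR had every K-3 library below Control and the other genes overlapped. The progenitor list of 8 genes summed to 402 to 438 and 466 to 485, also without overlap. Most of that sum was GATA4, GATA6 and FOXA2. GATA6, MNX1 and ONECUT1 each overlapped between the groups. The mean of ONECUT1 was lower with K-3, at 8.98 FPKM in Control and 8.14 in K-3. The pluripotency list of 5 genes, nearly all of it LIN28A, summed to 359 to 392 and 358 to 365, and the mean of NANOG in Control was 0.00172 FPKM. The neural list of 4 genes summed to 7.53 to 8.14 and 7.68 to 8.47 with SOX1 at 0 fragments, and the endothelial and blood lists stayed below 0.1 FPKM. The part of cell composition in the results below was not tested, and in such bulk samples fewer cells of a type and less RNA per cell cannot be told apart.

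With K-3, most replication genes had slightly higher values, and few passed the test. A gene entered the test when its average across libraries reached 1 FPKM, which held for 49 of the 52; POLA2, GINS3 and CCNE2 lay below that minimum. CDC45, GINS1 and RPA1 rose and 0 fell at an adjusted p under 0.05 (limma on log2(FPKM + 1), Benjamini-Hochberg over 12968 genes), where 1.17% of all tested genes were called higher and 0.910% lower. Scaling to equal sums without mitochondrial-encoded genes turned the split over all genes from 152 higher and 118 lower to 117 and 152, with 2 replication genes higher and 0 lower. With no adjustment, p was under 0.05 for 30 higher and 0 lower genes, against 11.7% and 10.4% of all tested genes. In 31 of the 49 every K-3 library lay above every Control library and in 0 below, against 15.4% and 12.0% of all tested genes. The log2 fold change was positive in 44 of the 49, against 54.6% of all tested genes, and in 42 under that scaling. Its median was 0.15, where the median of all tested genes was 0.01. The shares called, 1.17% and 0.910%, also stand beside the counts of each role group and list below. At such shares, 0 called in a group of a few genes says little about that group.

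In FPKM, the change of the group mean ranged from -5.42% to 54.2% over the 49 genes, with a median of 13.7%. It was under 10% in either direction for 16 genes, from 10% to 20% for 22 and at least 20% for 11. A further 13 genes missed the threshold with an adjusted p between 0.05 and 0.1 (limma). The share of all tested genes in that range was not counted, so this number has no comparison. Leaving out 1 library moved the calls over the whole table. None of the 49 genes passed without Control replicate 3, where 1 gene of all tested was higher, or without K-3 replicate 1, 2 or 3, where 0 were. With no adjustment, those 4 fits (limma) had 19, 20, 26 and 25 higher replication genes at p under 0.05, in that order, against 7.38%, 9.44%, 8.07% and 9.67% of all tested genes. Without Control replicate 1, 7 replication genes passed as higher against 1.99% of all tested genes, and without Control replicate 2 there were 2 against 2.13%.

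**Figure D1:**
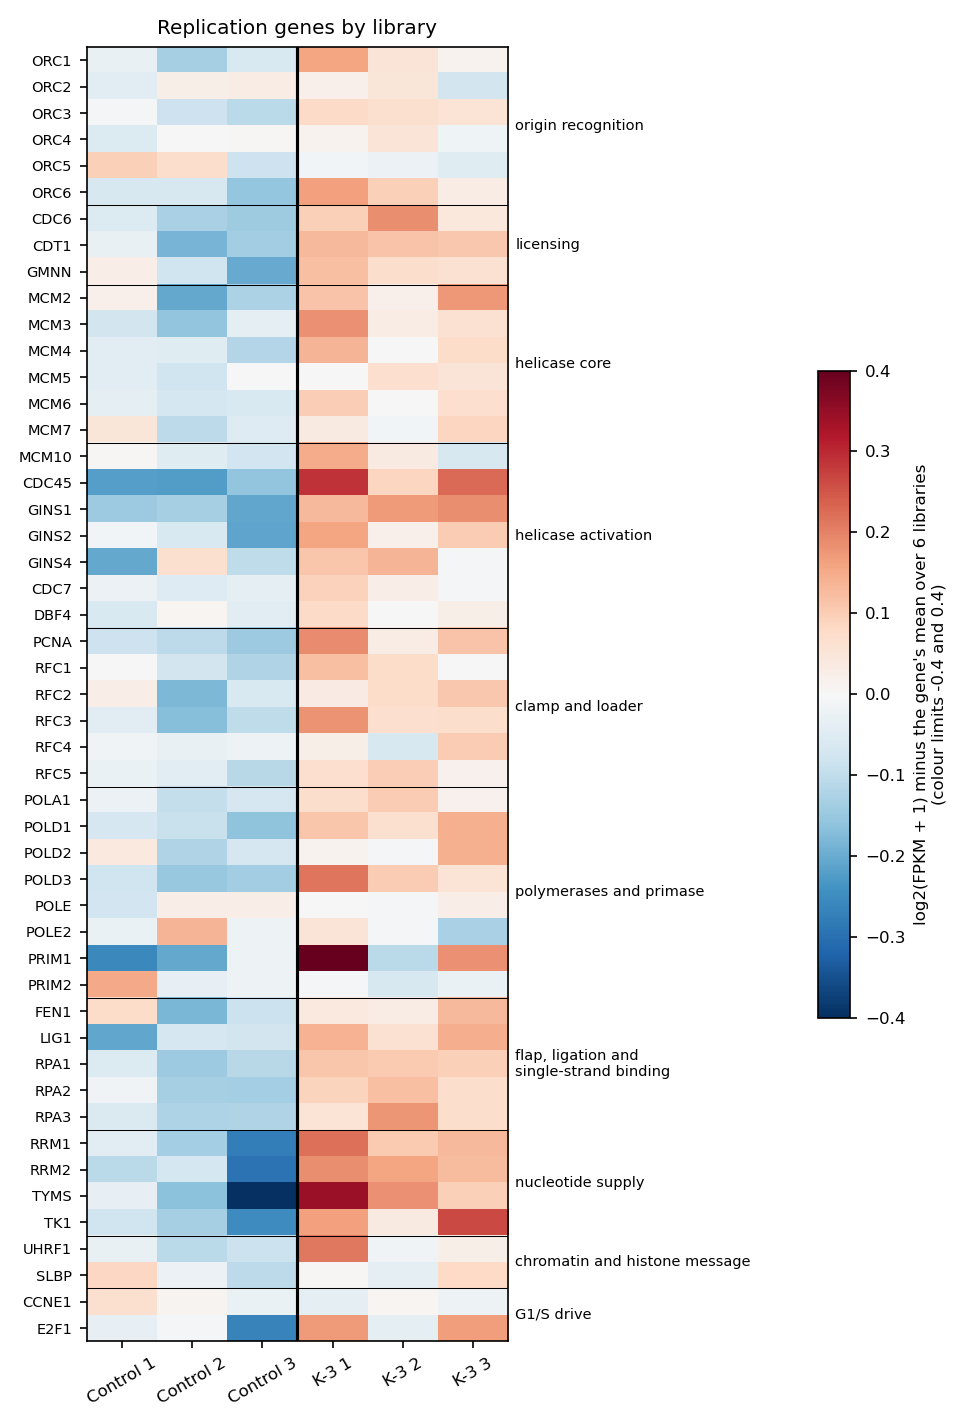
Level of each tested replication gene (rows, grouped by role) in each library (columns), as log2(FPKM + 1) minus the gene's mean over the 6 libraries; blue is below and red above that mean. Most rows turn from blue in Control to red with K-3, while ORC2, ORC5, POLE, POLE2, PRIM2, SLBP and CCNE1 do not.

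The origin recognition complex, the 6-subunit platform that marks where replication can start, had 0 of 6 genes past the test. ORC6 had 7.19, 7.19 and 6.69 FPKM in Control replicates 1 to 3 and 8.59, 8.14 and 7.74 in K-3 replicates 1 to 3. The groups did not overlap, and its log2 fold change was 0.19 (SE 0.05, adjusted p = 0.0966). ORC5 had 4.96, 4.85 and 4.26 FPKM in Control and 4.53, 4.48 and 4.39 with K-3, so all K-3 values lay within the Control range. ORC1, whose message is cell cycle regulated, and ORC3 also had every K-3 library above Control (log2 fold changes 0.15 and 0.13, adjusted p = 0.179 and 0.135), whereas ORC2 and ORC4 overlapped.

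Of the factors that load the helicase, all 3 had every K-3 library above Control, against 15.4% of all tested genes. Of these, 0 passed. CDT1, which brings MCM to the origin, had 7.04, 6.20 and 6.45 FPKM in Control and 7.98, 7.88 and 7.84 in K-3 (log2 fold change 0.24, SE 0.05, adjusted p = 0.0604). The K-3 values were close together and the Control values spread more widely. Its inhibitor GMNN had 9.08, 8.38 and 7.61 in Control and 9.78, 9.40 and 9.33 with K-3 (0.17, adjusted p = 0.168), with Control replicate 1 nearest to K-3. CDC6, the ATPase that works with CDT1, had a log2 fold change of 0.22 (adjusted p = 0.105).

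The MCM ring is built from 6 related subunits, and all 6 had a positive log2 fold change, between 0.07 and 0.21, with 0 past the test. MCM3 had 31.1, 29.3 and 31.9 FPKM in Control and 37.4, 33.6 and 34.3 with K-3 (0.18, adjusted p = 0.123), without overlap. MCM7 had 36.5, 32.7 and 34.0 in Control and 36.2, 35.0 and 37.5 with K-3 (0.07, adjusted p = 0.442), with Control replicate 1 above the lower K-3 values. Per length, the ring's subunits did not stand at equal levels: over the 6 libraries MCM7 averaged 35.3 and MCM3 32.9 FPKM, MCM6, MCM2 and MCM4 16.2, 14.9 and 14.1, and MCM5 6.42. These levels divide by all annotated exon bases of a gene, which came to 7338 for MCM5 and 4386 for MCM7, so a gene with many little-used exons gets a lower FPKM.

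Of the 3 genes that rose, 2 belong to the factors that complete the moving helicase, CDC45 and the GINS complex. GINS1 rose from 7.46, 7.54 and 7.11 FPKM in Control to 9.26, 9.54 and 9.65 with K-3, a log2 fold change of 0.32 (SE 0.04, 95% interval 0.23 to 0.42, adjusted p = 0.0236). Each group was tight, and the means were 7.37 ± 0.23 and 9.48 ± 0.20 (SD, n = 3 libraries each). CDC45 rose from 1.41, 1.40 and 1.51 to 2.42, 1.97 and 2.28 FPKM, a rise of 54.2% in the mean and the largest of the 49 (log2 fold change 0.40, SE 0.07, 95% interval 0.23 to 0.57, adjusted p = 0.0459). These values rest on 463 fragments in the Control libraries and 866 in the K-3 libraries, and the K-3 libraries spread more than the Control libraries. CDC45 kept its call in 5 of 15 alternative fits in which it was tested and GINS1 in 10 of 16, with CDC45 at an adjusted p of 0.0127 to 0.182.

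The other GINS subunits had smaller or less certain differences. GINS2 had separate groups (log2 fold change 0.19, adjusted p = 0.160), and GINS4 overlapped (0.16, adjusted p = 0.294). GINS3, below the minimum, had 0.703, 0.615 and 0.937 FPKM in Control and 1.05, 0.959 and 1.07 with K-3, again without overlap. Neither gene of the kinase pair that fires origins passed. DBF4, the activating subunit, had 5.06, 5.35 and 5.12 in Control and 5.66, 5.32 and 5.43 with K-3 (0.07, adjusted p = 0.410), and the kinase CDC7 had 0.08 (adjusted p = 0.310). MCM10, which helps the helicase start, had 0.08 (adjusted p = 0.561).

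**Figure D2:**
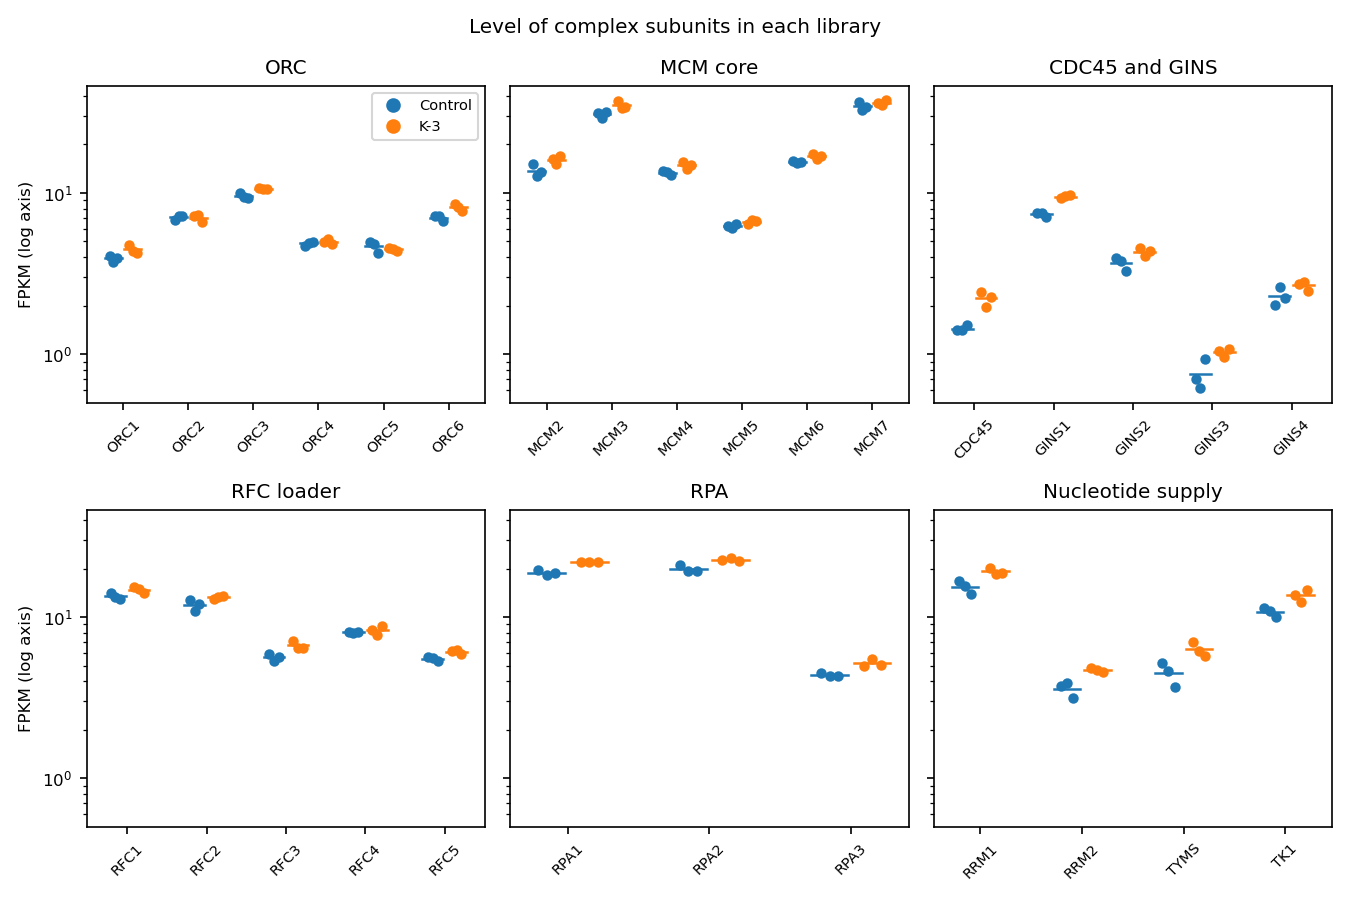
FPKM (log axis) of complex subunits in each Control (blue) and K-3 (orange) library; points are libraries and short lines group means. CDC45 and GINS1 stand clear of their Control values, as do subunits in every other panel. MCM5 lies below the other MCM subunits in both groups.

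PCNA, the ring-shaped clamp that gives polymerases their grip, had 29.6, 29.2 and 28.3 FPKM in Control and 36.0, 32.1 and 34.1 with K-3. The groups did not overlap, and the log2 fold change was 0.22 (SE 0.05, 95% interval 0.11 to 0.34), but the adjusted p of 0.0687 missed the threshold. Its loader had 4 of 5 subunits with every K-3 library above Control, against 15.4% of all tested genes, and 0 called. RFC3 had the smallest p of the loader (log2 fold change 0.21, adjusted p = 0.0851). RFC4 was the exception, with 8.09, 8.01 and 8.06 in Control around which the K-3 values of 8.35, 7.79 and 8.85 scattered (0.04, adjusted p = 0.654).

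Of the polymerase genes, 0 passed. Subunits of the delta enzyme, which copies mainly the lagging strand, and of the epsilon enzyme, which copies mainly the leading strand, are given side by side, and the difference between the enzymes was not tested. POLD1, the delta catalytic subunit, had 12.8, 12.6 and 11.9 FPKM in Control and 14.6, 14.0 and 14.9 in K-3 (log2 fold change 0.21, SE 0.04, adjusted p = 0.0585). POLD3, an accessory subunit, had 0.25 (adjusted p = 0.0667), and POLD2 overlapped at 0.10. The epsilon catalytic subunit POLE had 4.80, 5.24 and 5.23 in Control and 5.13, 5.09 and 5.24 with K-3, an interval for the log2 fold change of -0.09 to 0.12. Its partner POLE2 had -0.06, with an interval of -0.23 to 0.11.

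The primase pair, which lays down the RNA primers, had 0 genes past the test. PRIM2, the large subunit, had 8.19, 7.08 and 7.16 FPKM in Control and 7.24, 6.92 and 7.13 in K-3 (log2 fold change -0.06, adjusted p = 0.549), the most negative of the 49 on the log2(FPKM + 1) scale; in percent of mean FPKM, POLE2 was lower, at -5.42% against -5.11%. PRIM1, the catalytic subunit, had 2.26, 2.38 and 2.84 in Control and 4.16, 2.62 and 3.42 with K-3 (0.32, SE 0.13, adjusted p = 0.210). K-3 replicate 1 was far above the rest and K-3 replicate 2 lay inside the Control range; the 95% interval ran from 0.02 to 0.63. POLA1, the polymerase that extends the primers, had 0.13 (adjusted p = 0.167). Its partner POLA2 was below the minimum, with 0.598 ± 0.043 FPKM in Control and 0.720 ± 0.048 with K-3, without overlap.

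The 3 subunits of RPA, the single-strand binding complex, had log2 fold changes close to each other, and 1 of them passed. RPA1 rose from 19.6, 18.3 and 18.8 FPKM in Control to 22.1, 22.0 and 21.8 in K-3 (log2 fold change 0.21, SE 0.04, 95% interval 0.12 to 0.30, adjusted p = 0.0497). Its adjusted p lay at the threshold and ranged from 0.0107 to 0.178 over 16 alternative fits, 6 of which called it. RPA2 had 0.19 (adjusted p = 0.0846) and RPA3 0.20 (adjusted p = 0.0848), both with separate groups. LIG1, the ligase of the lagging strand, had 0.23 (adjusted p = 0.0713). FEN1, the flap nuclease, had 14.0, 11.6 and 12.4 in Control and 13.7, 13.6 and 14.6 with K-3 (0.13, adjusted p = 0.309), and Control replicate 1 lay inside the K-3 range.

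The 4 nucleotide supply genes had the largest median of the 10 role groups, 0.31. All 4 had every K-3 library above Control, against 15.4% of all tested genes, and 0 passed the test. RRM2, the S-phase subunit of ribonucleotide reductase, had 3.75, 3.87 and 3.17 FPKM in Control and 4.82, 4.70 and 4.58 in K-3 (log2 fold change 0.31, SE 0.07, adjusted p = 0.0604). RRM1, the large subunit of the same enzyme, had 16.6, 15.5 and 14.0 in Control and 20.1, 18.5 and 18.9 with K-3 (0.30, adjusted p = 0.0641). Thymidine kinase TK1 had 0.31 (adjusted p = 0.0702). Thymidylate synthase TYMS had 0.42, larger than CDC45 on this scale, but 39.1% of its exon bases are shared with ENOSF1 on the opposite strand and its value is uncertain (adjusted p = 0.0910). Control replicate 3 was lowest in each of these 4 genes; the mean level of the 4, relative to the average of all libraries on the log2 scale, was -0.07, -0.13 and -0.31 in Control and 0.23, 0.12 and 0.15 with K-3.

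The genes that set S phase in motion did not separate. E2F1, the transcription factor that drives many of the genes above, had 2.91, 2.98 and 2.32 FPKM in Control and 3.50, 2.90 and 3.49 in K-3 (log2 fold change 0.20, SE 0.09, 95% interval -0.01 to 0.42, adjusted p = 0.250). CCNE1, a cyclin E, had 4.27, 4.08 and 3.95 in Control and 3.92, 4.07 and 3.97 with K-3, with an interval for its log2 fold change of -0.14 to 0.07. CCNE2, below the minimum, had 0.661, 0.457 and 0.544 in Control and 0.663, 0.499 and 0.502 with K-3; 37.0% of its exon bases are shared with INTS8 on the opposite strand. UHRF1, which carries DNA methylation across the fork, had 5.32, 4.99 and 5.08 in Control and 6.45, 5.39 and 5.55 with K-3 (0.15, adjusted p = 0.245). SLBP, which binds histone messages in S phase, was the most abundant of the genes and had 43.7, 40.5 and 38.2 in Control and 41.3, 40.1 and 43.6 with K-3 (0.03, adjusted p = 0.804).

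**Figure D3:**
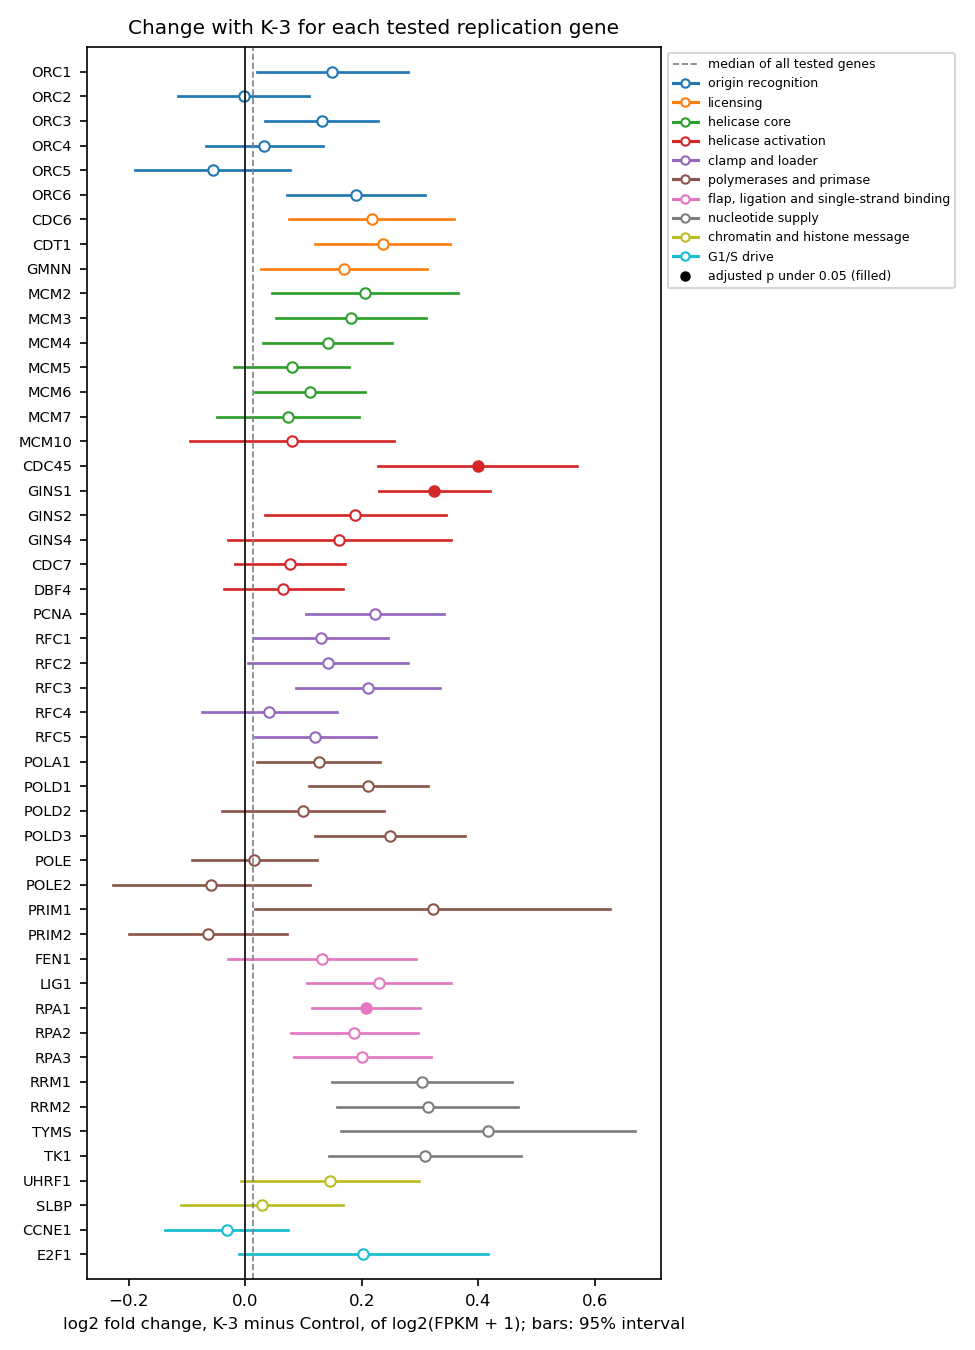
Log2 fold change (K-3 minus Control, of log2(FPKM + 1)) of each tested replication gene, coloured by role, with its 95% interval; filled points have an adjusted p under 0.05. The intervals of 30 genes lie above 0 and those of the other 19 include 0; the dashed line is the median of all tested genes, 0.01.

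The genes followed each other across libraries to a moderate degree. Over the 1176 pairs of tested genes, the median Pearson's r of log2(FPKM + 1) across the 6 libraries was 0.65, and after removal of the group means it was 0.24; the points of a pair share library and scaling, so these values are descriptions. Against the mean of the other 48 genes, r was at least 0.8 for 30 genes and below 0 for 6: CCNE1, POLE2, ORC5, PRIM2, ORC2 and POLE. The mean level of the 49 genes was -0.04, -0.08 and -0.11 in Control replicates 1 to 3 and 0.11, 0.05 and 0.07 in K-3 replicates 1 to 3. The groups did not overlap, and the Control libraries ranged over 0.07 where the groups differed by 0.15.

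The sequence before the transcription start was searched for letters of cell cycle elements. The letters of an E2F site (TTTCCCGC, TTTGGCGC, TTTCGCGC or TTTGCCGC, on either strand) were found in the 250 bases before a RefSeq start of 17 of the 45 genes with an entry, 37.8%, against 3.40% of 27305 genes and 2.79% of all 35116 starts. The 27305 genes are all those with an entry, with no limit to tested or protein-coding genes. A comparison with tested genes alone was not made. Matches can overlap each other, as they do in MCM6. Windows of 30 bases from GRCh38.p14 as given by RefSeq and read along the gene's own strand, are listed here to let the shared letters be compared across roles; capitals mark the E2F letters.
PCNA (chr20:5126663-5126692, - strand): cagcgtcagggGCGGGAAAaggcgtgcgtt
CDT1 (chr16:88803743-88803772, + strand): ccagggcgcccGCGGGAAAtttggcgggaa
MCM3 (chr6:52284898-52284927, - strand): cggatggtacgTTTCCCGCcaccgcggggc
MCM6 (chr2:135876515-135876544, - strand): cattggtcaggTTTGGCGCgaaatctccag
GINS2 (chr16:85688967-85688996, - strand): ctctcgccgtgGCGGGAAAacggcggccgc
RFC3 (chr13:33818083-33818112, + strand): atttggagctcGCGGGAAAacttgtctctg
POLA1 (chrX:24693770-24693799, + strand): gtcatcacaggGCGCCAAAcgcgcgtccgc
LIG1 (chr19:48170440-48170469, - strand): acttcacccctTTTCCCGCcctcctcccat
E2F1 (chr20:33686387-33686416, - strand): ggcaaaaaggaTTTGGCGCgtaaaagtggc

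The promoter before 1 RefSeq start of PCNA is shown at length because it carries both kinds of letters frequent in these genes. Another RefSeq start of PCNA had 0 E2F matches and 2 CCAAT boxes in the 250 bases before it. Within the bases 250 to 11 before the start shown there are 1 E2F match and 3 CCAAT boxes, in capitals. A CCAAT box is CCAAT or its reverse complement ATTGG.
PCNA (chr20:5126633-5126872, - strand, GRCh38.p14): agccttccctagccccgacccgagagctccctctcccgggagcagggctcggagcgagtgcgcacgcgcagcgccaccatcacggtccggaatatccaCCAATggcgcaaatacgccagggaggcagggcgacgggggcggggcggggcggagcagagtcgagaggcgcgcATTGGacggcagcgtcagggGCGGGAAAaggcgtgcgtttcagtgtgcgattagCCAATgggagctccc

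CCAAT boxes were searched for on either strand and were free to share end bases with an E2F match. They were found for 26 of the 45 genes, 57.8%, against 37.0% of all genes. They were also found for 14 of 15 G2/M genes, 93.3%, and 15 of 25 other replication factors, so they were not particular to the replication genes. The E2F letters were found for 2 of 15 G2/M genes and 5 of 25 other replication factors. The CHR element (TTTGAA or TTCGAA, either strand), typical of late cell cycle genes, was found for 2 of the 45 genes, 4.44%, against 17.2% of all genes and 60.0% of 15 G2/M genes with an entry. Matching letters are a description and not a bound site. Tested genes with E2F letters (16) had a median log2 fold change of 0.18 and a range of 0.02 to 0.42, and those without (27) had 0.13 and -0.06 to 0.40; with CCAAT boxes (26) the median was 0.18, and without (17) it was 0.08. The 3 genes that rose, CDC45, GINS1 and RPA1, had no exact match to the E2F letters searched for. Other forms of an E2F site were not searched for, so such a site before these genes is not excluded. Each of the 3 had a CCAAT box before at least 1 of its starts.

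**Figure D4:**
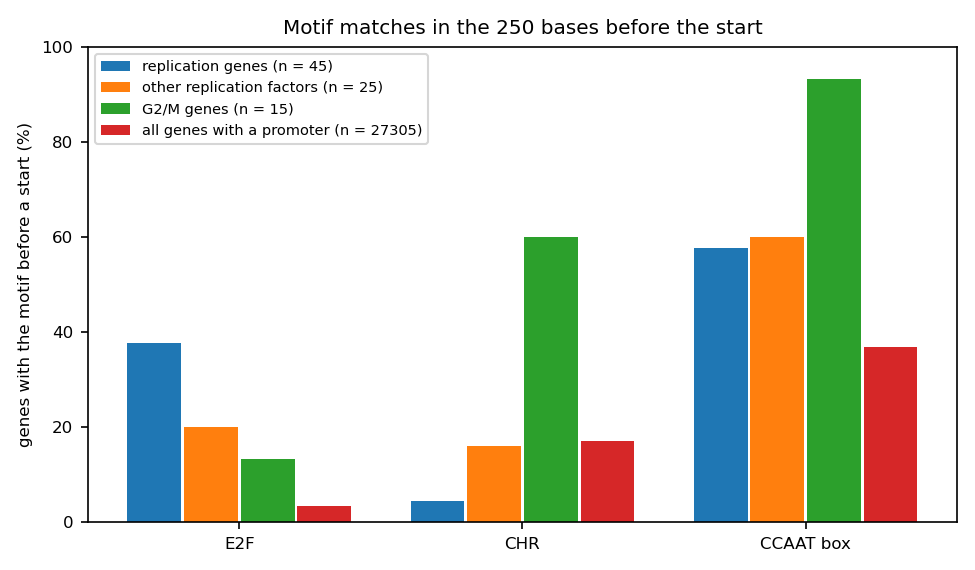
Share of genes (%) with E2F letters, CHR letters or a CCAAT box in the 250 bases before any RefSeq start. Sets are the replication genes, other replication factors, G2/M genes and all genes with an entry, tested or not. The replication genes exceed all genes for E2F letters (37.8% against 3.40%), while the G2/M genes do so for CHR letters (60.0% against 17.2%).

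Other genes of the pathway were listed by function. Of 32 further replication factors, 30 were tested, with a median log2 fold change of 0.12. Of these, 3 rose, 0 fell and 27 did not pass, where 1.17% of all tested genes rose and 0.910% fell. DSCC1, a subunit of an alternative clamp loader, rose from 3.38, 3.43 and 3.34 FPKM to 4.40, 4.68 and 4.33 (0.32, adjusted p = 0.0287). ASF1B, a histone chaperone, rose from 6.72, 6.55 and 6.18 to 8.77, 7.73 and 8.86 (0.34, adjusted p = 0.0428). TIMELESS, a fork protection factor, rose from 14.97, 14.89 and 13.7 to 18.1, 16.9 and 18.4 (0.28, adjusted p = 0.0465). All 3 had separate groups, as in 14 of the 30 with K-3 above Control and 3 with K-3 below, against 15.4% and 12.0% of all tested genes.

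A list of 14 genes held E2F factors, TFDP1, TFDP2, the pocket proteins, SKP2 and FBXO5. Of these, 13 were tested and 1 rose, where 1.17% of all tested genes rose. The gene that rose was not an E2F or pocket protein gene. It was FBXO5, an inhibitor of the anaphase-promoting complex. FBXO5 rose from 6.67, 6.45 and 5.95 to 8.42, 8.07 and 7.86 FPKM (log2 fold change 0.31, adjusted p = 0.0375). The median of that list was 0.03, near that of all tested genes. Of 17 genes of the fork checkpoint and repair, 16 were tested, with a median of 0.11. Of these, 0 passed, at the same share of 1.17% over all tested genes. FANCI, a repair factor of the Fanconi pathway, had the smallest p (0.25, limma adjusted p = 0.0575). Of 7 genes of kinase inhibitors, 4 were tested and 0 passed, with CDKN1B at 0.16 (adjusted p = 0.0974). CDKN1C, named after its values were seen, had the most negative log2 fold change of that list, -0.27 (adjusted p = 0.224), with means of 165 ± 17.8 FPKM in Control and 137 ± 17.8 in K-3 (SD, n = 3 libraries each) and every K-3 library below Control.

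The nearest comparison in the cell cycle is a list of G2/M genes. All 20 of them had every K-3 library above every Control library, against 15.4% of all tested genes, and 18 rose, against 1.17%. Their median log2 fold change was 0.40, where the replication genes had 0.15. Their mean level differed by 0.38 between the groups against 0.15 for the replication genes, and the smallest log2 fold change among them, 0.28 for KIF11, lay above 42 of the 49 replication genes. The difference between the lists was not tested. This list, like the others, was chosen with earlier results of these data known, so its counts are a description.

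**Figure D5:**
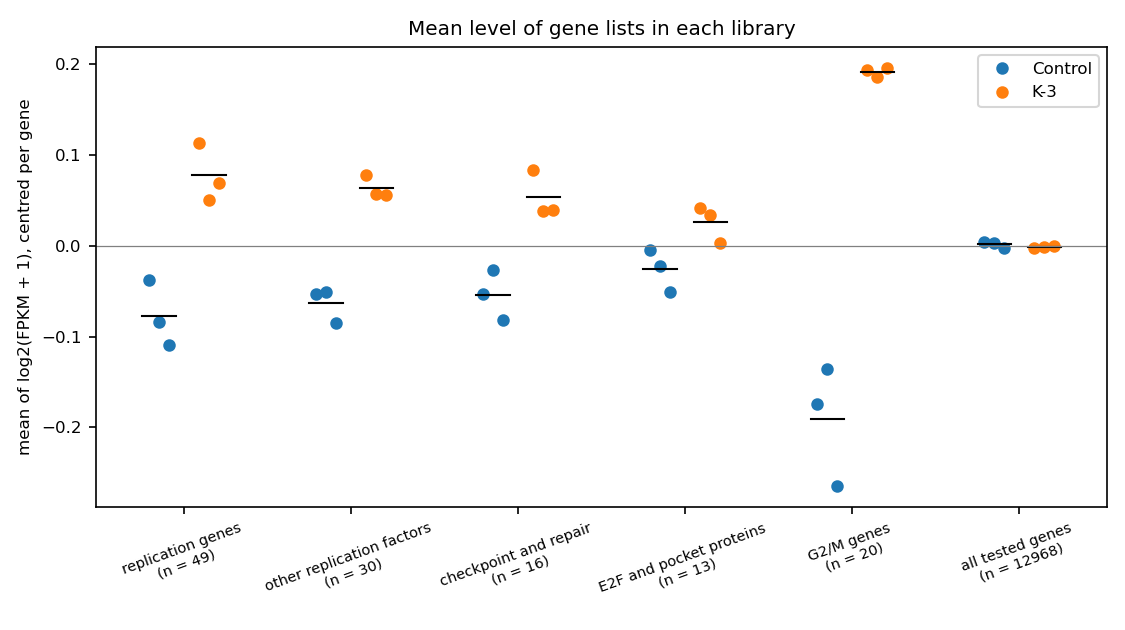
Mean of log2(FPKM + 1), centred on each gene's mean over the 6 libraries, for each list in each library (points; black lines are group means; n is the number of tested genes). The replication genes lie at -0.11 to -0.04 in Control and 0.05 to 0.11 with K-3, and the G2/M genes at -0.26 to -0.14 and 0.19 to 0.20.

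In the table's coordinates (GRCh38), CDC45 (ENSG00000093009) spans 19479459 to 19520612 of chromosome 22, GINS1 (ENSG00000101003) 25407727 to 25452628 of chromosome 20 and RPA1 (ENSG00000132383) 1829702 to 1900082 of chromosome 17, each on the + strand. PCNA (ENSG00000132646) spans 5114953 to 5126626 of chromosome 20, read from the - strand. These 4 genes code for proteins, and each value is a total over the gene's annotated exons. CDC45, GINS1 and PCNA share no exon base with another tested gene, and RPA1 shares 2.84%. Of the 52 genes, 14 share exon bases with a tested gene and 2 of these, TYMS and CCNE2, share at least 10%. POLA2 shares 35.1% of its exon bases with AP000944.2 and RRM2 shares 20.2% with AC007240.1, and PRIM1 shares 14.9% with AC117378.1, each on the same strand, and these partners had 0.0504, 0.165 and 0.0532 FPKM of their own; how such bases were counted is not stated, and the effect on the levels was not tested.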

How the data were processed

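The authors deposited a table of FPKM values that also lists each gene's length and position. For its making, HISAT2 2.0.5, featureCounts 1.5.0-p3, DESeq2 1.20.0 and GRCh38 are named, without roles or settings, per the submitters' processing notes. All 58735 IDs and positions equal GENCODE release 29. Per the labels' protocols the libraries were poly-A selected and paired-end; whether they kept strand is not clear. FPKM times length, divided by what 1 fragment is worth in a library, gave whole fragments for 100% of values (tolerance 1e-06).

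Genes of the Y chromosome and XIST were left out, leaving 58216. The 12968 genes averaging 1 FPKM or more were tested, K-3 against Control, with limma 3.58.1 (R 4.3.3; lmFit, eBayes with a trend) on log2(FPKM + 1), two-sided, adjusted p under 0.05 (Benjamini-Hochberg). Fold changes on this scale understate low genes. A 1 kb gene with 3 fragments has 0.0591 to 0.0834 FPKM, counting error only. With 3 libraries a group, an exact permutation test of a single value has 0.1 as its smallest p and was not used.

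Values per library are given for called genes, PCNA, CDC45, E2F1, the cyclins E and each role's smallest p and most negative fold change; those of GINS3, POLE and PRIM1 were added after they were seen. Genes and lists were chosen with earlier results of these data known. A planned motif search in proteins was not run.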

Additional observations from a re-analysis of the deposited data

How the results depend on the processing

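Over 16 alternatives the members' median log2 fold change stayed between 0.12 and 0.20 (0.15 as reported; 0.198 with limma voom on recovered fragments), and 0 members were lower in any. Numbers of calls depended strongly on the setting. With members higher, all genes higher and all genes lower in that order, they were 3, 152 and 118 as reported, 0, 0 and 0 with no filter on low values, 8, 237 and 169 at a minimum mean of 5 FPKM, 12, 460 and 360 with voom, 22, 1091 and 963 with array quality weights, 1, 50 and 49 on TPM, 2, 117 and 152 with equal sums without mitochondrial-encoded genes, and 13, 402 and 285 over protein-coding genes. At an unadjusted p under 0.05 the fit with no filter had 29 higher members, against 5.37% of all genes. Leaving out 1 library at a time gave 0 to 7 members higher, 0 to 275 genes higher, 0 to 440 genes lower and a median of 0.131 to 0.184. With the replicate number as a block, 0, 0 and 0 were called (limma). In that fit (limma) 28 members were higher at an unadjusted p under 0.05, against 8.64% of all genes. Deviations from the group means had r of -0.364, -0.0340 and -0.113 between same-numbered libraries, and -0.270 to 0.332 between different-numbered ones. With 3 libraries a group these r are tied to each other, so whether the numbers pair libraries cannot be told.

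Signs turned for 4 members near 0. ORC2 was 0.00836 with voom, 0.0174 with array weights and -0.0277 to 0.0326 with 1 library left out. POLE was -0.0114 with array weights, -0.0118 with sums equalised without mitochondrial-encoded genes and -0.0192 to 0.0332 with 1 library left out. SLBP was -0.00206 with the same equalised sums and -0.0159 to 0.0787 with 1 library left out. RFC4 was -0.0114 with array weights. The cause was not tested in any of these, except that leaving out a library leaves fewer samples. With 3 libraries a group, 0 of the 16 members that differed by under 10% passed, and genes under 1 FPKM rest on few fragments.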

Other observations

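In the lists beside the 52 genes, RNASEH2A and POLD4 stood below the minimum level, and each shares exon bases with another gene on the same strand. RNASEH2A, a subunit of ribonuclease H2, averaged 0.0702 FPKM over the 6 libraries with 30.8% of its exon bases shared with 1 other gene. POLD4, a small subunit of polymerase delta, averaged 0.948 FPKM with 21.3% shared. It was not tested and had 1.16, 1.04 and 1.06 FPKM in Control and 0.872, 0.765 and 0.794 in K-3, so every K-3 library lay below Control. The part of this overlap in their levels was not tested.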
